A study of Mus musculus with 7 samples.

Results

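Aspg and the enzymes that make and use asparagine, glutamine and glutamate were followed in the quadriceps muscle of a mouse model of spinobulbar muscular atrophy, an inherited neuromuscular disease caused by a CAG repeat expansion. The members are 9 genes, Aspg, Asrgl1, Asns, Glul, Glud1, Got1, Got2, Gpt and Gpt2. They were found by symbol, or by the current symbol of the accession, among the non-control probes of 7 single-dye Agilent mouse arrays. They account for 10 of 39429 probes and 9 of 31131 gene names, since Glud1 had 2 probes and each other member had 1. The members were chosen by values of this same contrast: Aspg was selected on its large difference between the genotypes and the other members with those differences known. For that reason their values are a description: no p-value is printed for them, and where they are counted past a threshold nothing is read from the count.

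There were 4 arrays of WT mice and 3 of AR113Q mice, 1 array per mouse. All mice had the C57BL/6 background and an age of 3 months in the labels, and the series design gives 90 days. AR113Q mice carry a knock-in allele, humanized and with an expanded CAG repeat, and were taken at an age before the onset of motor dysfunction. WT is the name of the controls in the labels. The study's own account of the experiment describes instead a line with a humanized allele and a shorter repeat, and the arrays do not settle which it was. The series design adds the letters NCD to the mutant group without explaining them. The knock-in allele is not restricted to muscle by its promoter.

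Each array had 18785 to 22013 probes well above background and no saturated spot. The 5 skeletal muscle markers Ckm, Acta1, Mb, Tnnt3 and Mylpf were well above background on all 7 arrays, as the labelled tissue asks. The arrays lay on 5 slides. Slide 2 held WT replicate 2 and AR113Q replicate 1 and was the only slide with both genotypes. AR113Q replicates 1 and 3 correlated least with each other within a group (r = 0.969). This was taken across the 17108 probes well above background on all 7 arrays, which are not independent replicates.

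Asparaginases split asparagine into aspartate and ammonia, and asparagine synthetase runs the opposite way with glutamine as the nitrogen donor. Glutamine synthetase and glutamate dehydrogenase join glutamate to ammonia metabolism, and aminotransferases pass the amino group of glutamate to oxaloacetate or pyruvate, giving aspartate or alanine. In skeletal muscle these reactions are known for carrying nitrogen from broken-down protein into glutamine and alanine, which leave the muscle, and for feeding the malate-aspartate shuttle, which moves reducing equivalents into mitochondria. Asns is a known target of ATF4, the transcription factor of the amino acid response.

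The values below are log2 of the background-subtracted intensity after quantile normalization, in the order WT replicates 1 to 4 and then AR113Q replicates 1 to 3. A difference is AR113Q minus WT on that scale with the standard error (SE) of the limma fit. Levels are compared only between arrays for 1 probe, since probes differ in their response.

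Aspg, which encodes a cytosolic asparaginase, differed most. The WT arrays read 5.84, 4.63, 4.46 and 5.08, and the AR113Q arrays 10.11, 10.78 and 9.95. Every AR113Q array lay more than 4 log2 units above the highest WT array, and none of the 7 arrays was without signal well above background. The difference was 5.28 (SE 0.35), 38.9-fold on the linear scale. It ranked 8 of 20991 kept probes, and 2 of 17108 probes well above background on all 7 arrays, in order of increase. Before normalization the intensity was 20.0 to 42.9 in WT and 1178 to 2399 in AR113Q.

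The size of the Aspg difference changed with the processing while its direction did not. It was 3.32 with a normexp background correction, 3.49 without background subtraction and 2.83 in the normalized values of the authors. Within slide 2 it was 5.48, from 1 array per genotype. With each array left out in turn it stayed between 5.03 and 5.56.

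The Aspg probe is a 60-base oligonucleotide, and its sequence is shown because the largest difference rests on this oligonucleotide alone. The array annotation places it at chr12:113365695-113365754 of mm9, on the plus strand. Whether it lies in an exon or a UTR was not looked up, as no annotation of that build was used here. The Gpt probe is shown beside it because its values, given below, spread most among the AR113Q arrays and because the array annotation gives it no position.

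Aspg probe: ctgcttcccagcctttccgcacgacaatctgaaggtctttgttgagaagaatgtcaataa
Gpt probe: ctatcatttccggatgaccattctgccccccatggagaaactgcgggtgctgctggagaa

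**Figure D1:**
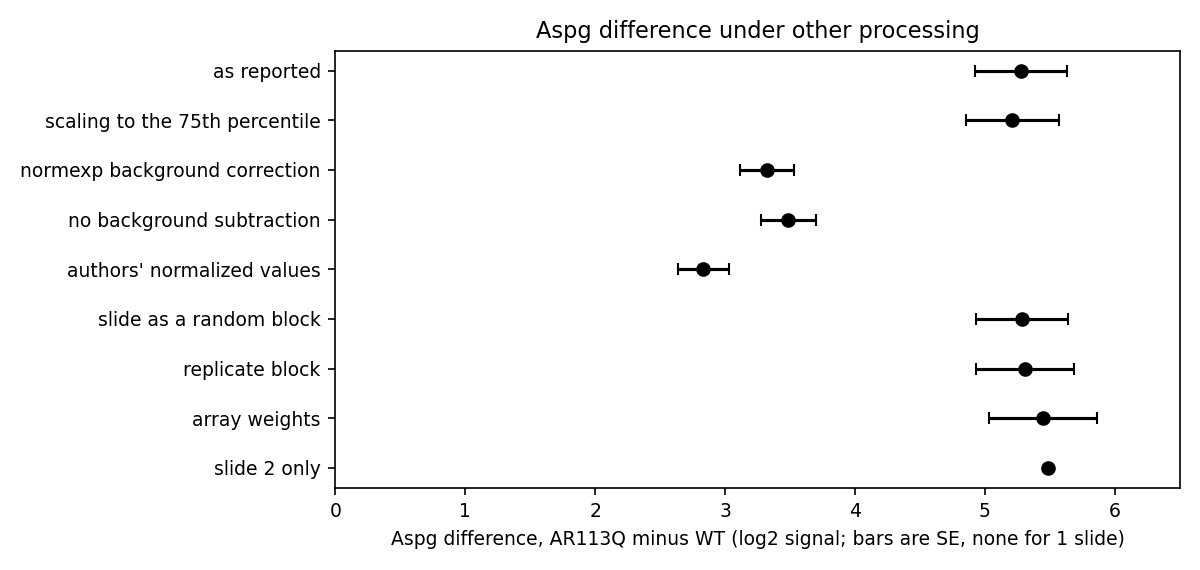
Difference of the Aspg probe, AR113Q minus WT, on the log2 scale under the reported processing and 8 alternatives; points are the fitted difference and bars the SE, with no SE for slide 2, which holds 1 array per genotype. All 9 points lie above 2.8, and the 3 lowest are the normexp correction, the signal without background subtraction and the authors' normalized values.

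Asrgl1, which encodes an asparaginase that also cleaves isoaspartyl peptides, read 6.04, 5.71, 5.95 and 5.92 in WT and 6.05, 5.47 and 5.74 in AR113Q. The groups overlapped, with the highest and the lowest array both in AR113Q. The difference was -0.15 (SE 0.18), and within slide 2 it was 0.34, of the opposite sign.

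Asns, asparagine synthetase, read 8.06, 8.61, 7.87 and 8.36 in WT and 9.73, 8.86 and 9.06 in AR113Q. All 3 AR113Q arrays lay above all WT arrays, with AR113Q replicate 2 and WT replicate 2 the closest pair. The difference was 0.99 (SE 0.26), just short of the fold threshold of 1, and 1.12 within slide 2. It passed that threshold after scaling to the 75th percentile, where it was 1.03, and when WT replicate 2, WT replicate 4, AR113Q replicate 2 or AR113Q replicate 3 was left out (up to 1.17). It stayed below the threshold when WT replicate 1 (0.94), WT replicate 3 (0.87) or AR113Q replicate 1 (0.73) was left out. With the normexp correction it was 0.79, without background subtraction 0.84 and in the authors' normalized values 0.74.

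Glul, glutamine synthetase, read 11.55, 12.69, 11.81 and 11.95 in WT and 11.90, 12.54 and 12.05 in AR113Q. The highest and the lowest array were both WT. The difference was 0.17 (SE 0.29), with a 95% interval from -0.50 to 0.83. Within slide 2 it was -0.79, since WT replicate 2 was the highest array.

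Glud1, mitochondrial glutamate dehydrogenase, had 2 probes. One read 11.83, 12.18, 11.72 and 11.64 in WT and 11.76, 11.83 and 12.00 in AR113Q, a difference of 0.02 (SE 0.18). The other read 10.33, 10.87, 10.63 and 10.97 in WT and 10.80, 11.11 and 11.13 in AR113Q, a difference of 0.31 (SE 0.20). The groups overlapped for both. The second probe is annotated to chromosome 7 although Glud1 lies on chromosome 14, so that its signal may not all come from Glud1. Within slide 2 the differences were -0.42 and -0.08.

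The 4 aminotransferases did not move as a group. Got1, the cytosolic aspartate aminotransferase, read 13.51, 13.88, 14.06 and 13.54 in WT and 14.66, 14.66 and 15.56 in AR113Q. All AR113Q arrays lay above all WT arrays, and AR113Q replicate 3 was the highest. The difference was 1.22 (SE 0.26), or 2.32-fold. It was 0.92 without AR113Q replicate 3 and 0.79 within slide 2, both short of the fold threshold.

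Got2, the mitochondrial aspartate aminotransferase, read 13.51, 13.71, 13.82 and 13.73 in WT and 13.72, 13.91 and 14.89 in AR113Q. AR113Q replicate 1 lay inside the WT range, replicate 2 just above it and replicate 3 well above it. The difference was 0.48 (SE 0.28), 0.12 without AR113Q replicate 3 and 0.01 within slide 2. The probe is annotated to chromosome 5 while Got2 lies on chromosome 8, so that the source of its signal is uncertain too.

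Gpt, the cytosolic alanine aminotransferase, read 10.54, 10.49, 10.78 and 10.64 in WT and 9.05, 9.63 and 12.42 in AR113Q. AR113Q replicates 1 and 2 lay below all WT arrays, and replicate 3 lay above all of them. The difference was -0.25 (SE 0.69), with a 95% interval from -1.83 to 1.34. Without AR113Q replicate 3 it was -1.27, then past both thresholds used below, which it was not with all arrays, and without AR113Q replicate 1 it was 0.41. AR113Q replicate 3 stood 3.08 above the mean of the other 2 AR113Q arrays, a gap larger than that of 99.8% of kept probes.

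Gpt2, the mitochondrial alanine aminotransferase, read 13.06, 13.02, 13.44 and 13.53 in WT and 12.24, 12.54 and 11.90 in AR113Q. All AR113Q arrays lay below all WT arrays. The difference was -1.04 (SE 0.21), 2.06-fold lower in AR113Q, and -0.79 within slide 2. It fell short of the fold threshold within slide 2 and in several fits. These were the fits with slide (-0.79) or replicate number (-0.95) as a fixed block, scaling to the 75th percentile (-0.98), the normexp correction (-0.95), no background subtraction (-0.95), the authors' normalized values (-0.93) and array weights (-0.93), and the fits in which WT replicate 3 (-0.98), WT replicate 4 (-0.95) or AR113Q replicate 3 (-0.88) was left out.

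**Figure D2:**
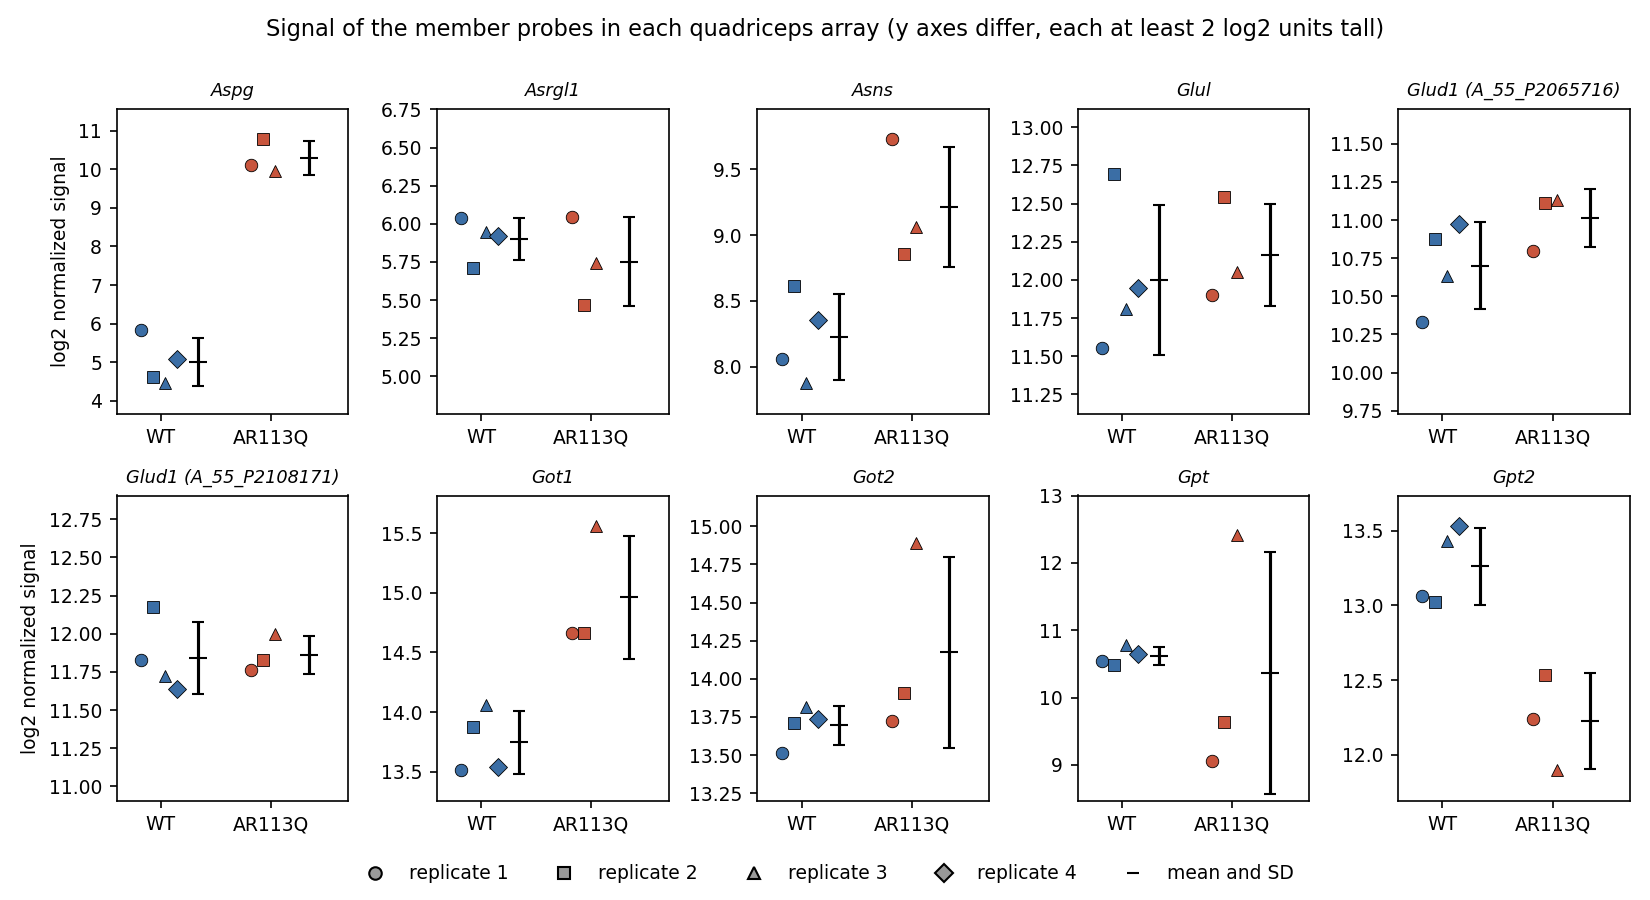
Log2 normalized signal of the 10 probes in each of the 4 WT arrays (blue) and 3 AR113Q arrays (red), with the mean and SD of each group in black and a separate y axis per panel. Aspg, Asns, Got1 and Gpt2 have no overlap between the genotypes, and in Gpt the 3 AR113Q arrays lie on both sides of the WT arrays.

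**Figure D3:**
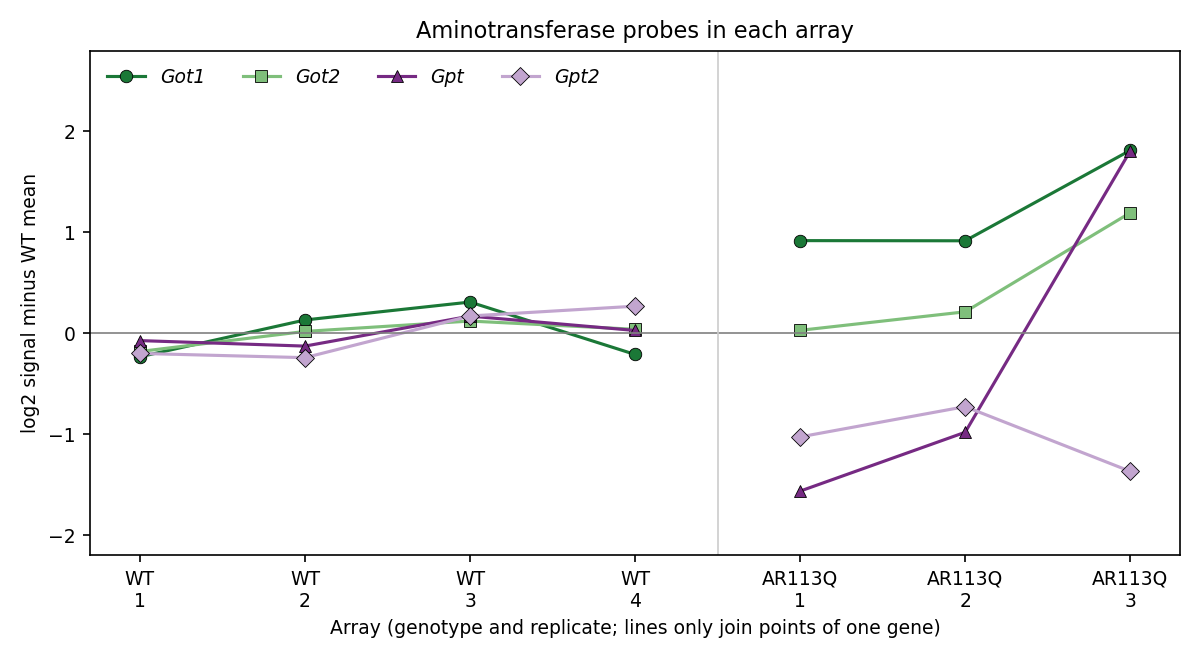
Log2 signal of the 4 aminotransferase probes in each array, minus the mean of the 4 WT arrays. In AR113Q replicate 3 Got1, Got2 and Gpt are each at their highest while Gpt2 is at its lowest.

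In AR113Q replicate 3 the Got1, Got2 and Gpt signals were high together. As deviations from the genotype means over the 7 arrays, Got2 and Gpt had r = 0.98, Got1 and Got2 r = 0.91, and Got1 and Gpt r = 0.85. AR113Q replicate 3 was the highest point of all 3 genes in these values. Mb, which encodes myoglobin, was also at its highest in AR113Q replicate 3, at 17.05 against 14.94 and 15.22 in the other AR113Q arrays. Alb, a hepatocyte marker, was well above background on that array only, Serpina1a on 3 arrays, and the other hepatocyte markers Apoa1, Ttr and Fgb on none. The summed linear signal of the 5 muscle markers was 348290 and 399297 in AR113Q replicates 1 and 2 and 604250 in replicate 3, against 532741 to 606116 in WT. Differences of the single muscle markers are given below with those of the other cell types. The part of these values in the aminotransferase signals was not tested.

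Past both thresholds, which ask for an adjusted p up to 0.05 and for a difference of 1 or more in either direction, were 3 of the 10 member probes, Aspg and Got1 higher and Gpt2 lower. Of all 20991 kept probes 24.8% were past them, 12.2% higher and 12.6% lower. By the adjusted p alone 4 of the 10 passed, Asns being the addition, against 43.8% of kept probes. After scaling to the 75th percentile the 3 were Aspg, Got1 and Asns, all higher. Groups did not overlap for 4 of the 10 member probes, against 49.6% of all kept probes. The median absolute difference was 0.40 over the members and 0.55 over all kept probes. Since the members were chosen with these differences known, nothing is read from the counts.

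**Figure D4:**
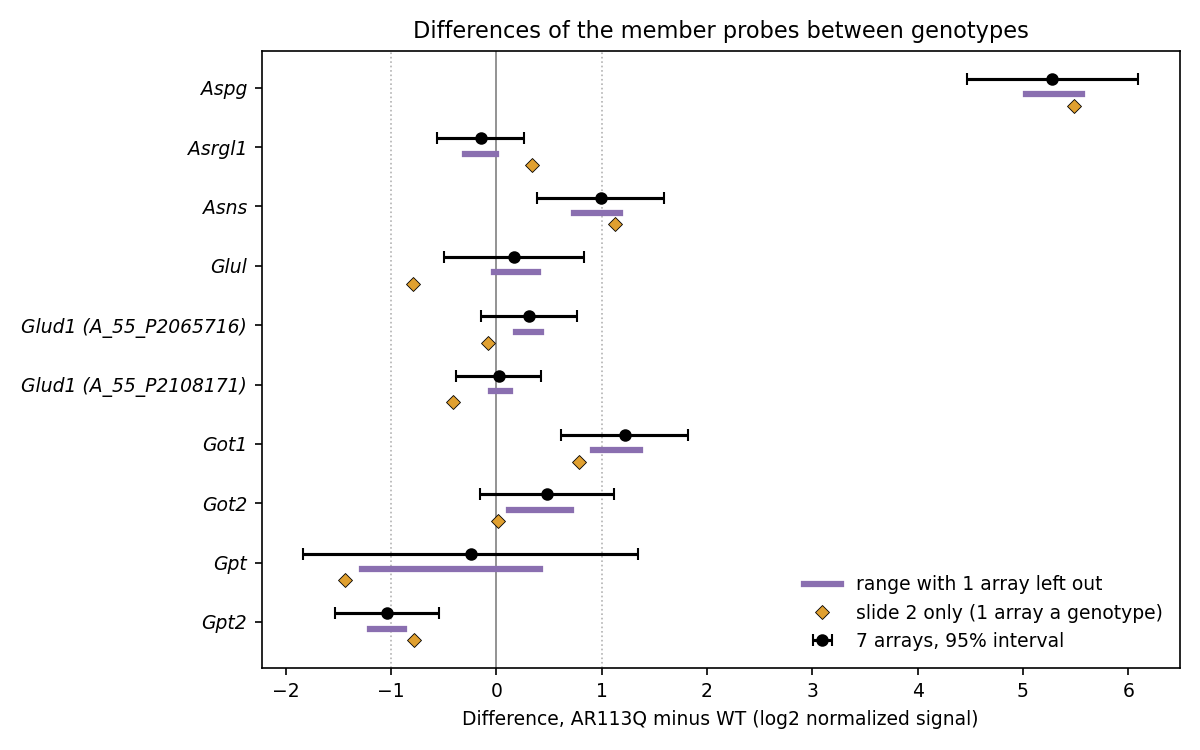
Difference of the 10 probes, AR113Q minus WT, on the log2 scale, with its 95% interval from 7 arrays (black), the range of values with 1 array left out (purple) and the value within slide 2 (yellow); dotted lines mark the fold threshold. Aspg lies far to the right of all others, and Asrgl1, Glul and both Glud1 probes have the opposite sign within slide 2.

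For the promoters, the 250 bases before the start of each gene in the RefSeq promoter table (GRCm38.p6, a newer build than that of the probe positions) were searched for the letters TGATGNAA on both strands, the core of the element that ATF4 and its C/EBP partners are known to bind. Of the 9 members 8 matched an entry, Gpt being the exception. The letters were present in 2 of the 8, Asns and Got1, and in 3.45% of all 32851 promoters. In Asns they began 23 bases before the start and in Got1, on the reverse strand, 102 bases before it. The windows of Asns and Got1, both higher in AR113Q on all 3 arrays, are shown with the TGATGNAA match in capitals, and that of Aspg, which has no match, is shown beside them as that of the largest difference. They lie at chr6:7693210-7693459 (minus strand), chr19:43524606-43524855 (minus strand) and chr12:112106433-112106682 (plus strand). A match is a description of the letters and not a site.

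Asns: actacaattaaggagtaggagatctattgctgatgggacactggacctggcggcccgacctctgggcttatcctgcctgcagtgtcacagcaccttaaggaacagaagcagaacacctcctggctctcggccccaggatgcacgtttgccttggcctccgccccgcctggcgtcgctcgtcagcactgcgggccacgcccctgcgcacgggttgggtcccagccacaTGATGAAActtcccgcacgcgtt
Got1: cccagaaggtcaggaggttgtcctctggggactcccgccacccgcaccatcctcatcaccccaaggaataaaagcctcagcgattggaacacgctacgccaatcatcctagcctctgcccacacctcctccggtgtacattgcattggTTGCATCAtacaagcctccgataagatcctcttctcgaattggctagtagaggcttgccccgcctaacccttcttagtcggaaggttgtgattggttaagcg
Aspg: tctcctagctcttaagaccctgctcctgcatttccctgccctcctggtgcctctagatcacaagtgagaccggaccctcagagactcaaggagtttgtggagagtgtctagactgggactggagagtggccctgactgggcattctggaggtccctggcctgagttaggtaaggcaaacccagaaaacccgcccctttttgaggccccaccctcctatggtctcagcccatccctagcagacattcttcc

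The other genes of these pathways were taken from 7 lists of 99 genes without the members, of which 79 had a kept probe. Each gene was represented by its brightest kept probe and tested with limma, with Benjamini-Hochberg adjustment over all 20991 kept probes. Of the 79 genes, 15 were higher and 13 lower in AR113Q past both thresholds (35.4%), against 24.3% of all 16577 genes (11.2% higher and 13.1% lower). Slc25a18 among the 15 and Aldh18a1 and Slc7a10 among the 13 were kept only through the group where they are high. Of the 28 genes 27 had no overlap between the genotypes, Ddit4 being the exception, and all 28 had the same sign within slide 2. The arrays behind both counts are those that called the genes, and among all 4032 called genes 96.8% had no overlap and 99.7% the same sign within slide 2, so nothing is read from them. The split was 10 higher and 5 lower with the normexp correction, 12 and 6 without background subtraction, and 8 and 3 in the authors' normalized values. These are called the 3 alternative signals below, where they end a call or move a value by over 1.5 times.

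Of 14 measured asparagine and aspartate enzymes 1 rose and 3 fell, with a median difference of -0.53. Asl, argininosuccinate lyase of the urea cycle, read 7.53, 7.24, 7.05 and 7.02 in WT and 8.66, 8.81 and 8.51 in AR113Q, a rise of 1.45 (SE 0.18, limma adjusted p = 0.000634); it missed the fold threshold with normexp (0.95) and in the authors' values (0.78). Aspa, which splits N-acetylaspartate, read 8.59, 8.60, 8.97 and 8.29 in WT and 6.66, 7.49 and 7.99 in AR113Q, a difference of -1.23 (SE 0.31, limma adjusted p = 0.0138). It missed the fold threshold in all 3 alternative signals (-0.80 to -0.62) and without AR113Q replicate 1 (-0.87). Aga, which encodes a lysosomal enzyme that frees asparagine from glycoproteins (-1.05), and Adssl1, the muscle adenylosuccinate synthase, which uses aspartate (-1.04), were the other 2 that fell. Both missed the fold threshold in the 3 alternative signals and without AR113Q replicate 1 (-0.93 and -0.97), and Aga also without WT replicate 3 (-0.99). They are named after their values were seen. The asparaginyl-tRNA synthetase gene Nars did not pass the test (0.32, limma adjusted p = 0.133).

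Of 14 measured glutamine enzymes 2 rose and 0 fell, and their median difference was -0.04. At an adjusted p alone 6 of the 14 passed, against 43.5% of all genes. Ctps2, a CTP synthase that takes nitrogen from glutamine, read 8.44, 8.79, 8.63 and 8.44 in WT and 11.27, 10.47 and 9.76 in AR113Q, a rise of 1.93 (SE 0.32, limma adjusted p = 0.00221). Gmps, GMP synthase, rose by 1.38 (limma adjusted p = 0.00111) at its brightest probe and did not pass at its other 2 kept probes; in the 3 alternative signals it was 0.63 to 0.86 and missed the fold threshold.

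Of 11 measured glutamate enzymes 0 rose and 4 fell, with a median difference of -0.18. Without AR113Q replicate 3 the split was 1 higher and 3 lower. At an adjusted p alone 7 of the 11 passed, against 43.5% of all genes. Gclm (0.99), Prodh (0.94) and Gclc (0.74) among them were higher. Ggct, a gamma-glutamyl cyclotransferase of glutathione turnover, read 10.05, 9.74, 10.27 and 9.95 in WT and 8.24, 9.11 and 9.16 in AR113Q, a difference of -1.17 (SE 0.26, limma adjusted p = 0.00735). It missed the fold threshold with normexp (-0.99), in the authors' values (-0.96) and without AR113Q replicate 1 (-0.87). Fpgs (-1.05), which adds glutamates to folate, also fell. Aldh18a1, of proline synthesis from glutamate, had a difference of -1.10. It was well above background on all 4 WT arrays and on 2 of 3 AR113Q arrays, so that it was kept only through the group where it is high, and nothing is read from its call, which is among the 4. Both are named after their values were seen. Neither passed in the 3 alternative signals, where Aldh18a1 was at -0.38 to -0.21 and Fpgs at -0.80 to -0.64. Aldh18a1 missed the fold threshold without WT replicate 1 (-0.94) or WT replicate 4 (-0.99) and with replicate number as a block (-0.99), and Fpgs without WT replicate 3 (-0.98) or AR113Q replicate 3 (-0.88) and with array weights (-0.99).

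Of 7 measured aminotransferases outside the members Kyat3, a kynurenine aminotransferase, alone rose past both thresholds, and 0 fell. It read 9.48, 9.48, 9.70 and 9.34 in WT and 11.30, 10.85 and 11.31 in AR113Q, a rise of 1.65 (SE 0.18, limma adjusted p = 0.000376), and both of its kept probes passed. Without AR113Q replicate 3 the split of the list was 1 higher and 1 lower.

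The malate-aspartate shuttle runs through Got1 and Got2, the malate dehydrogenases and the carriers of the inner membrane. Slc25a18, a mitochondrial glutamate carrier, read 2.74, 3.35, 4.36 and 1.46 in WT and 6.27, 6.20 and 7.21 in AR113Q, a difference of 3.58. It was well above background on 2 of 4 WT arrays and on all 3 AR113Q arrays, so that it was kept only through the group where it is high, and nothing is read from its call, which is among the 15. The difference was 1.04 with normexp and 1.08 without background subtraction. The malate dehydrogenases Mdh1 (-0.18, limma adjusted p = 0.742) and Mdh2 (0.27, limma adjusted p = 0.190) did not pass the test. The oxoglutarate carrier Slc25a11 (-0.17, limma adjusted p = 0.522) and the muscle aspartate-glutamate carrier Slc25a12 (0.28, limma adjusted p = 0.266) did not pass it either. Slc25a13 and Slc25a22 were not kept, being above background on fewer than 3 arrays.

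Of 12 measured plasma membrane transporters of these amino acids 3 rose and 3 fell. Slc1a1, a glutamate and aspartate transporter, read 6.33, 6.51, 6.64 and 6.02 in WT and 7.83, 7.98 and 8.22 in AR113Q, a rise of 1.63 (SE 0.19, limma adjusted p = 0.00055); it missed the fold threshold with normexp (0.94) and in the authors' values (0.66). Slc1a3, another transporter of glutamate and aspartate, read 6.72, 6.99, 6.42 and 7.11 in WT and 5.82, 4.90 and 5.02 in AR113Q, a difference of -1.56 (SE 0.27, limma adjusted p = 0.00253). It did not pass in the 3 alternative signals, where it was -0.57 to -0.34. Slc7a5 (1.55) and Slc7a8 (1.57), light chains of large neutral amino acid exchangers, also rose, while Slc38a4 (-1.51) fell. Slc7a10 had a difference of -2.80. It too was well above background on all 4 WT arrays and on 2 of 3 AR113Q arrays and kept only through the former, so that nothing is read from its call, which is among the 3 that fell. These 4 transporters are named after their values were seen. Slc7a5 passed at 1 of its 2 kept probes. Slc7a10 (-0.98 to -0.62) and Slc7a5 (0.27 to 0.47) did not pass in the 3 alternative signals. Slc7a8 did not pass in the authors' values (0.99), nor without AR113Q replicate 1 (1.33) or AR113Q replicate 2 (1.41), nor without a filter on dim probes (limma adjusted p = 0.0556). Slc38a2, a glutamine transporter, had a difference of 0.17 (limma adjusted p = 0.683).

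Of 17 measured genes of ATF4 and its targets 7 rose and 3 fell, with a median difference of 0.79 against -0.01 over all genes. Trib3, a pseudokinase, read 6.29, 7.25, 6.69 and 6.83 in WT and 9.21, 8.37 and 9.65 in AR113Q, a rise of 2.31 (SE 0.33, limma adjusted p = 0.00118). Atf4 itself read 14.82, 14.82, 14.70 and 14.95 in WT and 16.52, 16.13 and 16.34 in AR113Q, a rise of 1.50 (SE 0.16, limma adjusted p = 0.000345). Eif4ebp1 (1.98), a repressor of translation, Atf3 (1.94), Ddit4 (1.60), Sesn2 (1.38) and Atf5 (1.06) were the others that rose. Of the 3 serine synthesis genes Phgdh and Psph fell, and Psat1 did not pass the test (-0.33, limma adjusted p = 0.366). Phgdh read 8.57, 9.38, 7.94 and 8.78 in WT and 6.69, 6.62 and 7.05 in AR113Q, a difference of -1.88 (SE 0.32, limma adjusted p = 0.00233), and Psph was at -1.84. In the authors' normalized values Phgdh was at -1.01 and Psph at -0.99, the latter just short of the fold threshold. Sesn2 missed it in the 3 alternative signals (0.61 to 0.83), and Trib3 and Atf3 passed there, at as low as 1.46 and 1.14. The third to fall was Vldlr (-1.17), a lipoprotein receptor, which was at -0.996 and just missed the fold threshold without AR113Q replicate 2. Members of the list named here other than Trib3 and Phgdh are named after their values were seen. Chac1 (0.01, limma adjusted p = 0.985) and Ddit3 (0.05, limma adjusted p = 0.925) did not pass the test. The letters TGATGNAA were in the promoters of 4 of 17 genes of this list with an entry. Atf5 and Ddit4 did not pass in 6 of 7 leave-one-out fits each; Atf5 passed only without AR113Q replicate 3 (1.40) and was lowest without AR113Q replicate 1 (0.60), and Ddit4 passed only without WT replicate 2 (2.06). Without a filter on dim probes neither passed (limma adjusted p = 0.0850 for Atf5 and 0.0885 for Ddit4). Nor did they with replicate number as a block (limma adjusted p = 0.0554 and 0.0849) or with array weights, where Atf5 was at 0.99 and Ddit4 had a limma adjusted p of 0.0822.

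**Figure D5:**
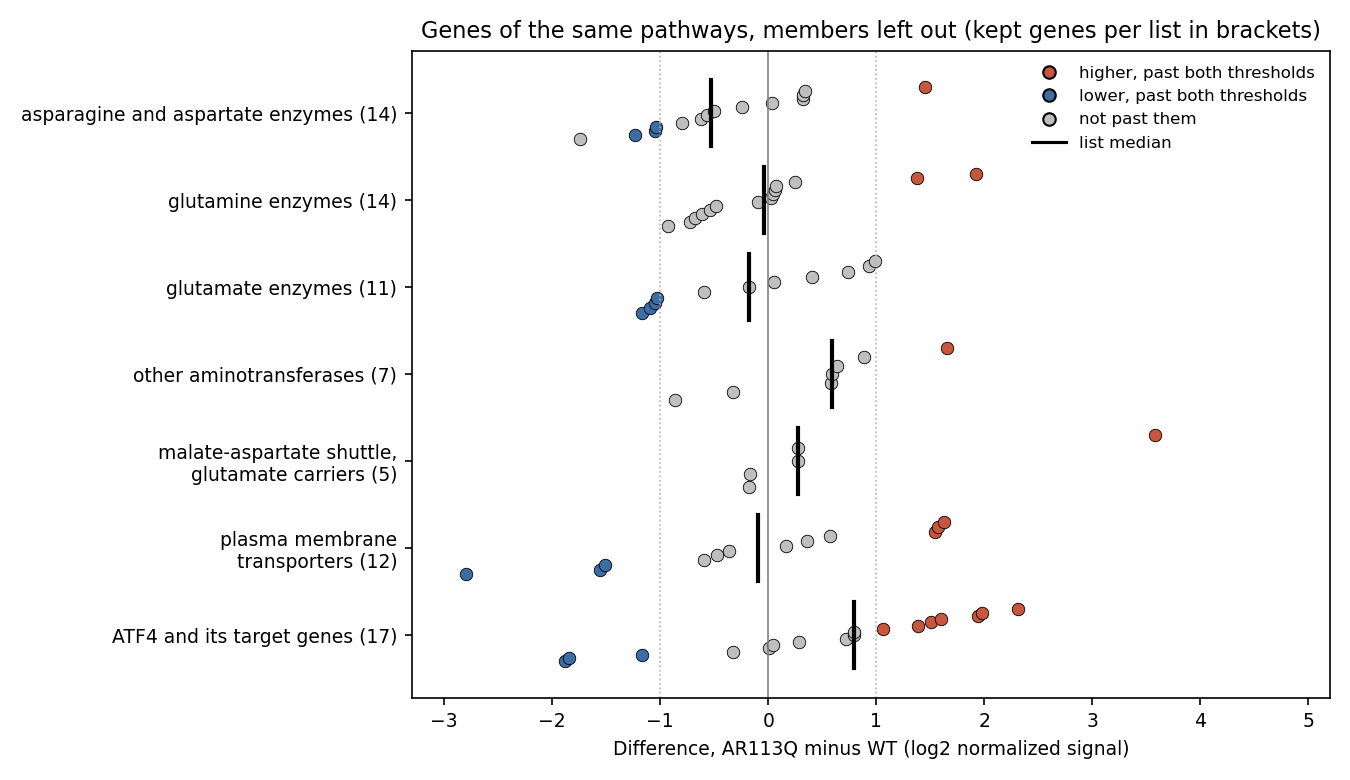
Difference, AR113Q minus WT, of each kept gene of the 7 lists on the log2 scale; red and blue points are past both thresholds, grey points are not, the black bar is the median of the list and dotted lines mark the fold threshold. The list of ATF4 and its targets has 7 red and 3 blue points and a median of 0.79.

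Some markers of muscle fibres and of other cell types in muscle differed between the genotypes. Of the skeletal muscle markers, Mylpf was lower past both thresholds at 1 of its 2 kept probes (-1.37, limma adjusted p = 0.0040). Ckm was lower by the adjusted p alone (-0.80, limma adjusted p = 0.0101), and neither overlapped between the genotypes. Acta1 (-0.60), Mb (-0.06) and Tnnt3 (0.002) did not pass the test. Of the 5 adipocyte markers 4 fell, Cidec at 1 of its 2 kept probes, with a difference of -2.71 for Adipoq, and the summed linear signal of the list was 32401 to 63339 in WT and 11250 to 20085 in AR113Q. The macrophage list summed to 6171 to 9973 in WT and 4349 to 5202 in AR113Q, with Adgre1 and Csf1r lower and Cd163 higher past both thresholds, Csf1r at 1 of its 3 kept probes. The Schwann cell list summed to 1173 to 3054 in WT and 780 to 827 in AR113Q. The summed endothelial list overlapped between the genotypes, though Pecam1 was higher (0.60, limma adjusted p = 0.0189) and Tek lower without overlap (-0.41, limma adjusted p = 0.118), and erythrocyte markers were highest in WT replicates 3 and 4. Fewer cells of a type and less RNA per cell cannot be told apart in bulk muscle. The part of these cells in the differences of the genes above was not tested.

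The genes whose signal followed Aspg most closely over the 7 arrays, among the 14708 probes well above background on all arrays whose symbol is in the RefSeq gene table, members left out, were Kdm3a (r = 0.995), Bet1l (r = 0.995) and Nktr (r = 0.994). Kdm3a read 8.31, 8.05, 7.73 and 8.07 in WT and 10.00, 10.03 and 9.98 in AR113Q. These correlations include the difference between the genotypes. After the genotype means were taken out, the closest were Slc27a3 (r = 0.997), Ksr1 (r = 0.991) and Dyrk2 (r = 0.979). The points share arrays and normalization, and with 7 of them the values describe these arrays only. Of the other members Got1 (r = 0.81) and Asns (r = 0.79) were the most alike to Aspg over the 7 arrays and Gpt2 the most opposed (r = -0.88), in each case with the genotype difference in the value. After the genotype means were taken out the signs turned, with r = -0.68 for Got1, -0.28 for Asns and 0.15 for Gpt2.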

How the data were processed

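RNA of quadriceps muscle was labelled with Cy3 and hybridized to Agilent Mouse GE 4x44K arrays. Images were read with Agilent Feature Extraction 10.7.3.1. The deposited scanner files give, for each spot, an intensity after background subtraction, without normalization between arrays, and the unsubtracted mean and local background intensities. A deposited table of normalized log2 values from the authors, with 18592 probes, served as an alternative. Against log2 of the unsubtracted mean it had r from 0.991 to 0.999, and its column medians were 8.92 to 8.93; its background step is not given in the sources used here.

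Log2 intensity was quantile normalized over 43020 non-control spots (44397 spots per array), with outlier spots (94 to 151 per array) left out, and averaged per probe. Probes were kept with at least 3 of 7 arrays well above background (20991 of 39429). The test was limma's lmFit and eBayes without a covariate (limma 3.58.1, R 4.3.3), with Benjamini-Hochberg adjustment over kept probes. The number of arrays limits the precision, and p-values measure the spread between these mice. The procedure was also run on simulated data with independent errors and no slide effect. That run cannot give the error rate of these arrays, and nothing is read from it. Current symbols came from RefSeq accessions (28330 probes), positions from the array annotation (mm9) and promoters from RefSeq (GRCm38.p6). Figures were drawn with matplotlib 3.10.9.

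The members, the gene lists and the tests were chosen with earlier results of these data known. Named are all member probes, the largest increase and decrease of each list among genes past both thresholds and above background on all arrays, every gene of a pathway list of 8 or fewer, and the 3 genes most like Aspg by either measure. Marker genes and other genes named outside this rule are examples chosen after their values were seen. Alternatives were other scalings, background corrections, filters, blocks, array weights, probe rules, no fold threshold and each array left out in turn. A few list genes are left unnamed and their values are not given here.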

Additional observations from a re-analysis of the deposited data

How the results depend on the processing

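The Aspg difference kept its direction in all 22 alternatives run, between 2.83 and 5.56. With slide as a fixed block only slide 2 carries the genotype difference, so that 1 residual degree of freedom is left: Aspg was at 5.48 without passing the adjusted p, 0 member probes and 0 genes of the wider lists passed, and Asrgl1 (0.34), Glul (-0.79) and the Glud1 probes (-0.42 and -0.077) changed sign. As a random block, slide changed no call among the members. The count of wider-list genes, 28 as reported, was 15 with normexp, 18 without background subtraction and 11 in the authors' normalized values; the cause was not tested. With 1 array left out, the counts ranged from 2 to 4 member probes and from 21 to 29 wider-list genes, and 5 to 7 of the 9 probes other than Aspg were higher in AR113Q (6 with all arrays). Over the same fits Gpt ranged from -1.27 to 0.41, Glul from -0.023 to 0.40 and the chromosome 14 probe of Glud1 from -0.048 to 0.13, each with both signs. Arrays of the same replicate number were not paired by the labels, and their deviations correlated at 0.05, 0.02 and 0.19; with the number as a replicate block 2 member probes and 26 wider-list genes passed, Aspg was at 5.31, Gpt2 missed the fold threshold at -0.95, and the chromosome 14 probe of Glud1 was at -0.047. Fitting 1 probe per gene or the mean over its probes left 3 member genes past both thresholds. With normexp and without background subtraction the differences of several dim genes shrank by over 1.5 times, among them Aspg, Slc25a18, Slc7a10, Slc7a5 and Slc1a3.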
